A study of Homo sapiens with 48 samples.

Results

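The rescue deficit of A546H was measured as a difference of responses: the log2 change of each gene between siUPF1 and siNT libraries of the A546H line, minus the same change in the WT line. Its members are 12 of the 48 libraries of the series, 3 in each of 4 groups, chosen by the line and the siRNA that their labels give. All came from Flp-In 293 T-REx cells, a line derived from HEK293 human embryonic kidney cells that takes up transgenes at a single recombination site. The A546H groups expressed CLIP-tagged UPF1 with the change A546H, an alanine replaced by histidine, and the WT groups expressed CLIP-tagged wild-type UPF1. Each line was transfected with 40 nM of an siRNA against endogenous UPF1 (siUPF1) or of a non-targeting siRNA (siNT), and RNA was harvested after 72 h. A CLIP-UPF1 transgene was thus present in all 4 groups, and endogenous UPF1 was left untargeted in both siNT groups. The labels do not state whether a line is 1 clone or a pool of clones. Per its title, the study concerns how autoinhibition and activation of the ATPase of UPF1 bear on RNA decay.

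Nonsense-mediated mRNA decay (NMD) degrades transcripts on which ribosomes stop at a premature stop codon, and it also sets the level of many normal transcripts, among them those with an intron downstream of the stop codon or with short open reading frames before the main one. UPF1 is the ATP-driven RNA helicase at its centre. UPF1 is phosphorylated by the kinase SMG1, it is bridged to the exon junction complex by UPF2 and the UPF3 proteins, and its phosphorylated form recruits SMG5 and SMG6, which start decay. Several of these factors are encoded by transcripts that are themselves NMD targets, so their RNA levels rise when the pathway is impaired.

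The 12 libraries had totals of 21.3 to 38.5 M expected counts, and 19129 genes had counts enough to be tested. Of 6 markers of the HEK293 line, the summed level was 1170 to 1310 CPM (counts scaled to the same library total, per M) with A546H and siUPF1, 1190 to 1310 with A546H and siNT, 1210 to 1340 with WT and siUPF1 and 1130 to 1220 with WT and siNT. WT siUPF1 replicate 3 stood apart from the rest: on the second principal component of the 2000 most variable genes it was at -36.6, and the other 11 libraries were between -5.51 and 13.1. Its deviation from its group had a Spearman coefficient of 0.66 with GC content (11679 genes), and those of the other 11 libraries lay between -0.74 and 0.74. The median size of its deviation was 0.24 on the log2 scale, against 0.061 to 0.169 in the others. The 0.169 was of A546H siNT replicate 3, which also had the coefficient of 0.74 with GC content. Values without WT siUPF1 replicate 3 are therefore given beside many, though not all, of the genes and lists described. Such values are not given gene by gene for A546H siNT replicate 3. Of 4 fibroblast markers the summed level was 5.51 to 7.16 CPM with A546H and siUPF1, 4.12 to 5.33 with A546H and siNT, 10.4 to 16.6 with WT and siUPF1 and 5.32 to 6.66 with WT and siNT, most of it from COL3A1, while DCN was at or near 0; the part of these markers in the results was not tested. The series calls its replicates biological triplicates and gives no shared culture or day, so p-values measure the spread between these libraries. In bulk RNA, fewer cells of a type and less RNA per cell cannot be told apart.

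UPF1 (ENSG00000005007.8), the target of the siRNA, was measured first. Its level was 3920, 4330 and 4800 CPM with A546H and siUPF1 and 4030, 4150 and 5020 CPM with A546H and siNT. With WT it was 4330, 4350 and 5860 CPM under siUPF1 and 5190, 5030 and 5640 CPM under siNT. The siUPF1 and siNT libraries of each line overlapped, and with siNT all 3 A546H libraries were below the WT ones, by -0.27 (adjusted p = 0.521). The difference of responses was 0.11 (standard error, SE, 0.228, edgeR quasi-likelihood test, Benjamini-Hochberg adjusted p = 0.974). Reads of the transgene and of the endogenous gene are counted together under this name, so the level does not show how much endogenous UPF1 was removed in these lines. In the line that expressed the CLIP tag alone, UPF1 changed by -2.17 with siUPF1 (SE 0.174, edgeR, adjusted p = 4.83e-13). Its 3 siUPF1 libraries had 18.2, 36.8 and 17.7 CPM of UPF1. Replicate 2, the highest, also stood apart in its mitochondrial share of counts, at 0.631% against 2.32% and 2.13%. The values given below for the tag-alone line include this library.

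Few genes had a called difference of responses, and most of those were higher in A546H. At an adjusted p under 0.05, 57 of 19129 genes were called (0.298%), 49 higher (0.256%) and 8 lower (0.0418%), and 9 of the higher (0.047%) and 1 of the lower genes (0.00523%) differed at least 2-fold. The number with an unadjusted p under 0.05 was 1596. In simulated counts the same test called 27% of genes changed by 0.5 on the log2 scale and 87% of those changed by 1. Differences near 0.5 were thus mostly missed there. Each response taken alone involved many more genes, 6153 (32.2%) in A546H, 17.2% higher and 15% lower, and 5211 (27.2%) in WT, 14% higher and 13.3% lower. Setting the lines side by side without subtracting the siNT libraries, 1546 genes differed between A546H and WT with siUPF1 (8.08%, 985 higher, or 5.15%, and 561 lower, or 2.93%) and 170 with siNT (0.889%, 102 higher, or 0.533%, and 68 lower, or 0.355%). These 4 comparisons share libraries with the deficit and are given beside it as its components.

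Among the 49 genes with a higher difference, A546H responded upward and WT in both directions. In A546H 45 of the 49 rose, 1 (PPM1E) fell and 3 (HKR1, USP22 and GPR107) were not called, while in WT 10 rose, 12 fell and the rest were not called. All 8 genes with a lower difference fell in A546H, and in WT 2 fell and 6 were not called. With siUPF1 48 of the 49 were higher in A546H than in WT and all 8 were lower, and their median level differences were 0.71 and -0.69. With siNT 4 of the 49, PEA15, CIDECP, U2AF1L4 and SMG6, were already higher in A546H and none of the 8 was called, and the medians were 0.02 and 0.00. The 57 genes were selected on the difference of these same values. Their directions and medians therefore follow in large part from that selection and are given as a description. Without WT siUPF1 replicate 3 59 genes were called, 50 higher and 9 lower, of which 45 were among the 57. The calls lost without it were those of SMG6, FDPS, MATN2, GPR107, ZNF266, FAM13B, LRRC37A2, KIAA1377, LRRC37A4P, AFG3L1P, LINC00999 and RP11-375I20.6. In a fit to the 12 libraries alone, which estimates the spread from these libraries only, 9 genes were called, 7 of them among the 57. Those 7 were CLDN15, GABARAPL1, INSIG1, PEA15, CDK3, DMPK and RP11-815I9.4. The rest of the 57, among them SMG1, SMG5, SMG6, PCLO, FAM168B, IFI6, FDPS, FDFT1 and SQLE, were not called there. When WT siUPF1 replicate 3 was also left out of that fit, 48 genes were called (46 higher, 2 lower), 18 of them among the 57. The cause of these shifts was not tested.

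**Figure D1:**
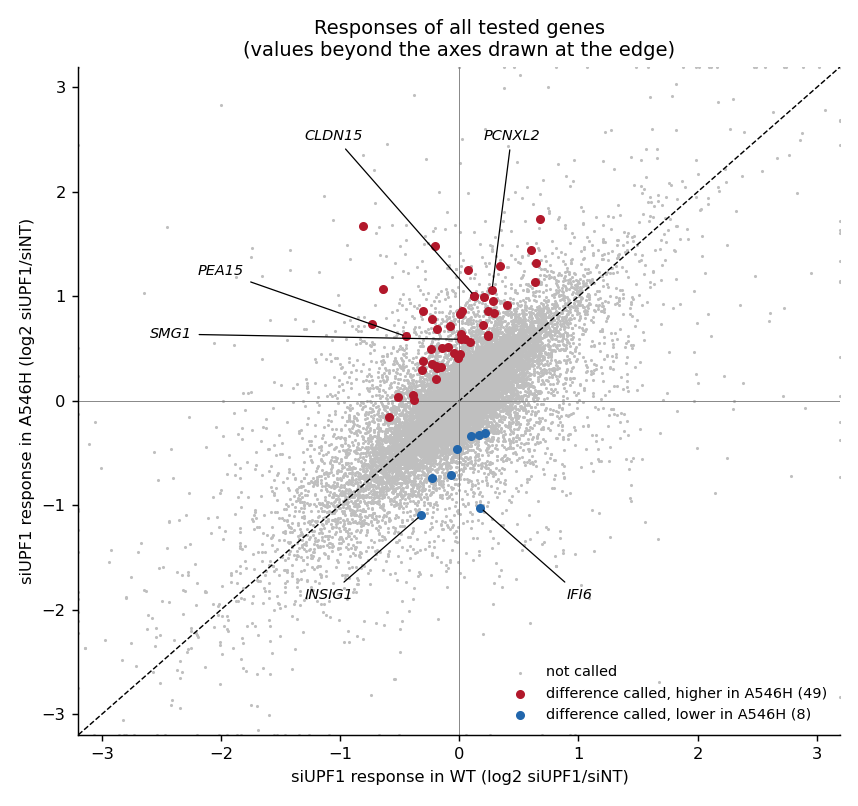
Log2 change with siUPF1 against siNT of each of the 19129 tested genes in A546H (vertical axis) and in WT (horizontal axis). Genes on the dashed line responded alike; the 49 genes called higher in A546H (red) lie above it and the 8 called lower (blue) below it.

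Genes of the NMD machinery were among those called. Of 9 NMD factors other than UPF1, 3 were called higher and 0 lower, against 0.256% and 0.0418% of all genes, and the median difference was 0.40 (0.01 over all genes tested). The 3 were SMG1, the kinase of UPF1, SMG5, an adaptor that binds phosphorylated UPF1, and SMG6, the endonuclease that cuts the target. In A546H 6 of the 9 rose and 1, SMG8, fell (17.2% and 15% of all genes), with a median of 0.34. In WT 1, UPF3A, rose and 2, SMG5 and SMG9, fell (14% and 13.3% of all genes), with a median of -0.13. In the fit without WT siUPF1 replicate 3, SMG1 and SMG5 were called and the median was 0.28. In the fit to the 12 libraries alone 0 of the 9 were called, with a median of 0.40, and 1 was in that fit without WT siUPF1 replicate 3. Other alternatives called more. With replicate 2 of the tag-alone siUPF1 group left out of the full fit, 4 were called higher (0.721% of all genes). With an offset for GC content 5 were (1.44% of all genes).

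SMG1 (ENSG00000157106.12) was at 687, 648 and 613 CPM with A546H and siUPF1 and at 471, 463 and 362 CPM with A546H and siNT. In the WT line it was at 398, 414 and 348 CPM with siUPF1 and at 379, 390 and 380 CPM with siNT. All 3 A546H siUPF1 libraries were above the other 9, and the A546H siNT group overlapped both WT groups. The response was 0.59 in A546H and 0.01 in WT, a difference of 0.58 (SE 0.111, edgeR quasi-likelihood test, Benjamini-Hochberg adjusted p = 0.00736; 0.51 and 0.0263 without WT siUPF1 replicate 3). SMG1 has transcribed pseudogene copies, so some of its reads could have been assigned to or from them. The call was kept in each of the 12 fits that left out 1 library and lost in a fit to the 12 libraries alone (0.58, adjusted p = 0.185).

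SMG5 (ENSG00000198952.7) was at 277, 291 and 296 CPM with A546H and siUPF1 and at 228, 217 and 261 CPM with A546H and siNT. With WT it was at 132, 147 and 164 CPM under siUPF1 and at 171, 189 and 191 CPM under siNT. The lines moved in opposite directions: A546H rose by 0.29 and WT fell by 0.31, and the difference was 0.60 (SE 0.14, edgeR, adjusted p = 0.0461; 0.69 and 0.0272 without WT siUPF1 replicate 3). The A546H siNT libraries were also above all WT siNT libraries, although that level difference of 0.36 was not called (adjusted p = 0.0646). SMG5 was called in 3 of the 12 fits that left out 1 library, so its call is at the edge of the threshold.

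SMG6 (ENSG00000070366.9) had 162, 156 and 166 CPM in the A546H siUPF1 libraries and 124, 118 and 141 CPM in the A546H siNT libraries. In WT the values were 91.0, 91.0 and 83.4 CPM with siUPF1 and 103, 105 and 96.7 CPM with siNT. Its difference of responses was 0.54 (SE 0.116, edgeR, adjusted p = 0.0223), made of a rise of 0.34 in A546H and a value of -0.20 in WT that was not called. SMG6 was also 0.33 higher in A546H with siNT (adjusted p = 0.0374), so the line started from a higher level and moved further from it. It was called in 2 of the 12 fits that left out 1 library, and without WT siUPF1 replicate 3 it was at 0.50 with an adjusted p of 0.0676. It overlaps other genes, and with the strand setting of the counting not given, their reads cannot be told apart.

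The other 6 NMD factors were not called in the fit to all 48 libraries. UPF2, which binds UPF1, had a difference of 0.40 (SE 0.143, edgeR, adjusted p = 0.352), rose in A546H (0.41) and was not called in WT (0.01). SMG9 and SMG8, the subunits that hold SMG1 in check, were at 0.18 and -0.13, and UPF3B was at 0.23. UPF3A, the weaker paralogue of UPF3B, rose in both lines, by 0.40 in A546H and 0.31 in WT, a difference of 0.10 with a 95% interval of -0.06 to 0.25.

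**Figure D2:**
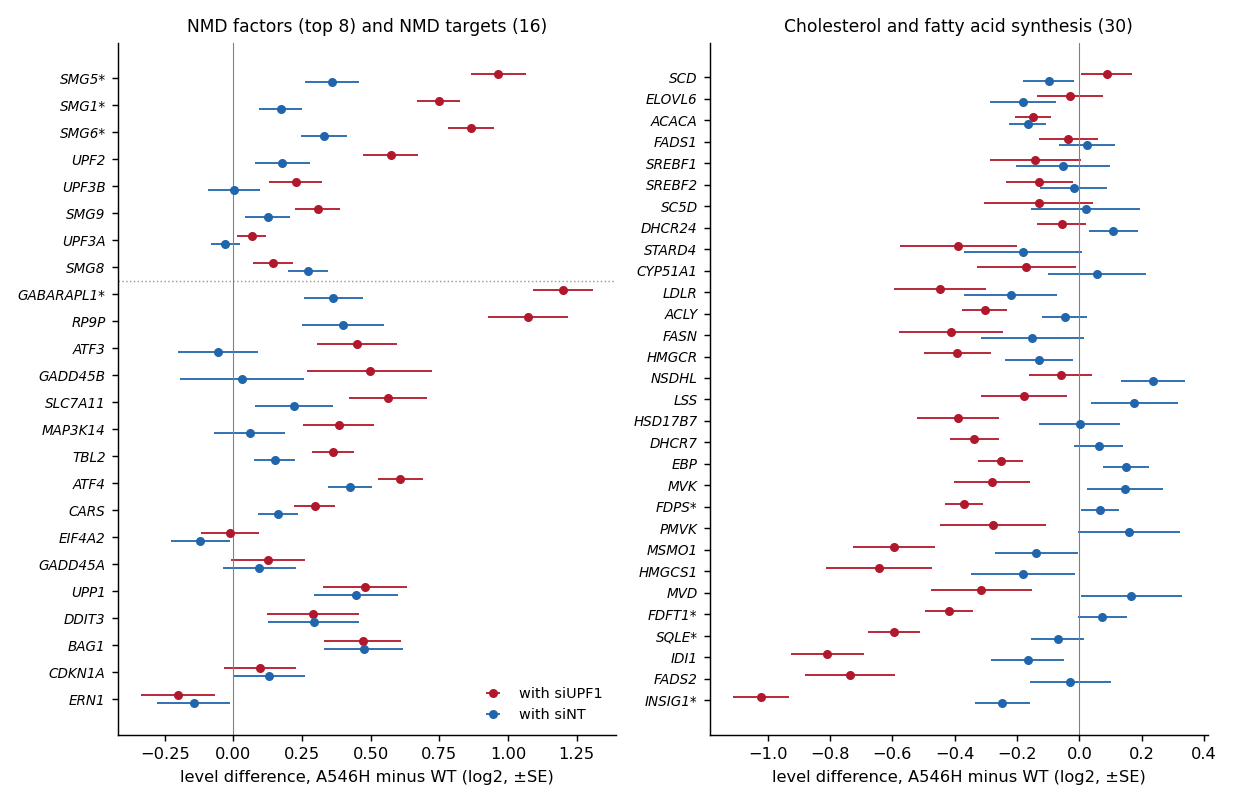
Level difference between A546H and WT (log2, with its SE) in siUPF1 libraries (red) and in siNT libraries (blue), for 8 of the 9 NMD factors and the 16 NMD targets (left) and the 30 cholesterol and fatty acid genes (right), ordered by the difference of responses, which is the distance between the red and the blue point. An asterisk marks genes called in that difference: SMG5, SMG1, SMG6 and GABARAPL1 on the left and FDPS, FDFT1, SQLE and INSIG1 on the right.

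Of 16 commonly used NMD targets 1, GABARAPL1, was called in the difference of responses. The median was 0.16 against 0.01 over all genes, and 12 of the 16 values were above 0. In A546H 5 of the 16 rose and 1 fell (17.2% and 15% of all genes), and in WT 1 rose and 1 fell (14% and 13.3%). Between the lines with siUPF1 9 were higher in A546H and 0 lower (5.15% and 2.93% of all genes), with a median level difference of 0.42, and with siNT 1, ATF4, was higher (0.533% of all genes), with a median of 0.16. Without WT siUPF1 replicate 3 all 16 differences of responses were above 0, with a median of 0.22, and again 1 was called. With replicate 2 of the tag-alone siUPF1 group left out of the full fit, 2 were called higher (0.721% of all genes). An RNA level does not separate decay from transcription, and several of these genes also belong to stress responses.

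GABARAPL1 (ENSG00000139112.6), an autophagy gene of the ATG8 family, was at 104, 107 and 100 CPM in A546H siUPF1 libraries and at 52.3, 56.8 and 62.6 CPM in A546H siNT libraries. The WT libraries were at 47.9, 49.2 and 38.1 CPM with siUPF1 and at 44.6, 45.9 and 42.9 CPM with siNT. All 3 A546H siUPF1 libraries were far above the other 9. The gene rose by 0.86 in A546H and was not called in WT (0.02), a difference of 0.84 (SE 0.152, edgeR, adjusted p = 0.00639; 0.74 and 0.0186 without WT siUPF1 replicate 3). The call was kept in all 12 fits that left out 1 library.

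RP9P, a transcribed pseudogene whose reads may be mixed with those of the gene it was copied from, was at 12.5, 14.9 and 14.1 CPM with A546H and siUPF1 and at 8.14, 8.73 and 8.87 CPM with A546H and siNT. In WT it was at 7.56, 7.77 and 4.06 CPM with siUPF1 and at 5.83, 6.69 and 6.99 CPM with siNT. The lowest value came from WT siUPF1 replicate 3, and the difference of 0.68 (SE 0.209, edgeR, adjusted p = 0.209) was 0.46 without that library.

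BAG1, a co-chaperone, responded alike in both lines. It had 141, 135 and 144 CPM with A546H and siUPF1 and 75.6, 58.6 and 75.4 CPM with A546H and siNT, against 85.2, 89.6 and 129 CPM with WT and siUPF1 and 46.1, 50.1 and 54.8 CPM with WT and siNT. Both lines rose by 1.00 and the difference was 0.00 (SE 0.2, 95% interval -0.41 to 0.40, edgeR, adjusted p = 1), while the level was 0.47 higher in A546H with either siRNA, called with siUPF1 (adjusted p = 0.0304) and not with siNT (adjusted p = 0.0947). The WT siUPF1 value of 129 CPM is of replicate 3, and without it the difference was 0.21. ATF4, the transcription factor of the integrated stress response, was likewise higher in A546H with siNT (0.42, adjusted p = 0.00603) and with siUPF1 (0.61), and its difference of responses was 0.18 (adjusted p = 0.742). The remaining members ran from -0.06 for ERN1 to 0.51 for ATF3, and none was called.

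Non-coding hosts of small nucleolar RNAs, whose spliced transcripts are classical NMD targets, had 0 of 19 members called, with a median difference of 0.03 and 5 members with an unadjusted p under 0.05. Without WT siUPF1 replicate 3 the median was 0.15, 16 of the 19 were above 0 and 1, EPB41L4A-AS1, was called (0.54, edgeR, adjusted p = 0.023, against 0.47 and 0.0523 with it). In A546H 6 rose and 2 fell (17.2% and 15% of all genes), and in WT 3 rose (14% of all genes). ZFAS1 was at 109, 108 and 108 CPM with A546H and siUPF1 and at 60.5, 63.0 and 67.5 CPM with A546H and siNT, against 46.0, 42.2 and 49.1 CPM with WT and siUPF1 and 48.1 ± 2.38 CPM (SD, n = 3) with WT and siNT. The A546H siUPF1 values were the highest and close together, yet in the fit to all 48 libraries its difference of 0.84 (SE 0.28) was not called (edgeR, adjusted p = 0.274). In a fit to the 12 libraries alone ZFAS1 was called (0.85, edgeR, adjusted p = 0.0171). It was likewise called once CLIP siUPF1 replicate 2, a library outside this comparison, was left out of the full fit (0.84, edgeR, adjusted p = 0.00094). SNHG1 behaved in the same way, at 0.61 (SE 0.176, adjusted p = 0.153) and called in those fits (adjusted p = 0.0483 and 0.00172). GAS5, SNHG5, SNHG8 and SNHG12 were between 0.00 and 0.11.

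**Figure D3:**
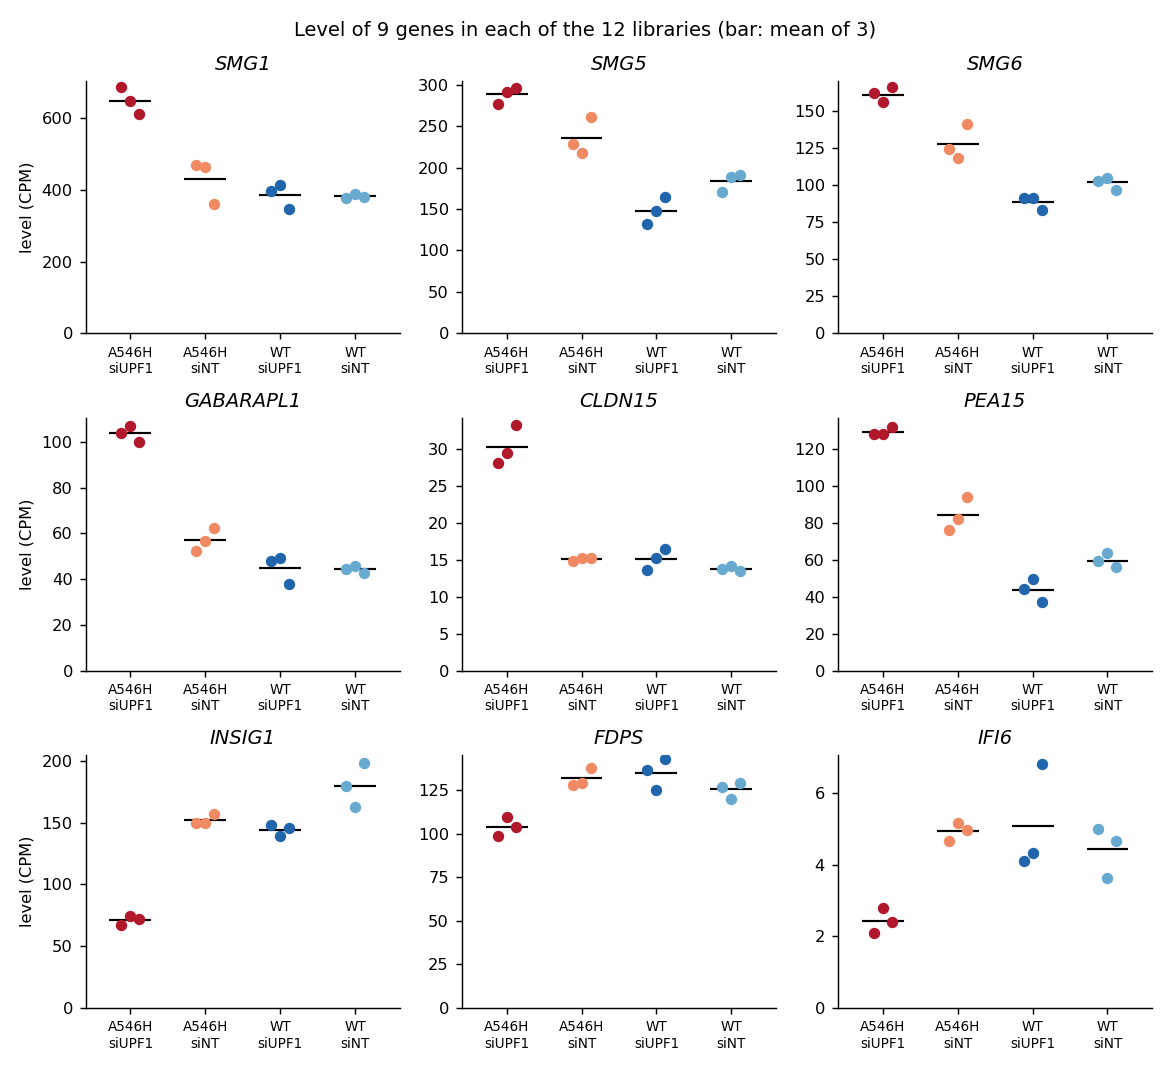
Level in CPM (vertical axis, from 0) of 9 called genes in each library, with the mean of 3 as a bar; groups are A546H siUPF1, A546H siNT, WT siUPF1 and WT siNT. In the first 6 panels the 3 A546H siUPF1 libraries lie above all others, and in INSIG1, FDPS and IFI6 they lie below all others.

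Genes of cholesterol and fatty acid synthesis differed in the opposite direction. These genes are switched on by the SREBP transcription factors, which INSIG proteins hold in the endoplasmic reticulum when sterols are abundant. Of 30 members 4 were called lower and 0 higher, against 0.0418% and 0.256% of all genes, 3 of the 30 differences were above 0, 14 had an unadjusted p under 0.05, and the median was -0.33. The A546H response had a median of -0.12 (7 higher and 9 lower) and the WT response a median of 0.17 (11 higher and 5 lower). Over all genes 17.2% rose and 15% fell in A546H, and 14% and 13.3% in WT. With siUPF1 12 members were lower in A546H than in WT and 0 higher (2.93% and 5.15% of all genes, median -0.31). With siNT 0 differed (median -0.02). Without WT siUPF1 replicate 3 again 4 were called lower, with a median of -0.32. In the fit to the 12 libraries alone 1 member, INSIG1, was called, and 2 were in that fit without WT siUPF1 replicate 3.

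INSIG1 (ENSG00000186480.8), the sterol-regulated retention factor and itself an SREBP target, was at 66.9, 74.5 and 71.8 CPM with A546H and siUPF1 and at 150, 150 and 157 CPM with A546H and siNT. In WT it was at 148, 139 and 146 CPM with siUPF1 and at 180, 163 and 198 CPM with siNT. It fell in both lines, by 1.10 on the log2 scale in A546H and by 0.32 in WT, and the A546H siUPF1 libraries were below all other 9. The difference was -0.78 (SE 0.126, edgeR, adjusted p = 0.0017; -0.76 and 0.00422 without WT siUPF1 replicate 3), and the call was kept in all 12 fits that left out 1 library and in the fit to the 12 libraries alone.

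The other 3 called members are consecutive enzymes of the pathway to sterols. FDPS, which makes farnesyl diphosphate, was at 98.6, 110 and 104 CPM with A546H and siUPF1 and at 128, 129 and 138 CPM with A546H and siNT, against 137, 125 and 143 CPM with WT and siUPF1 and 127, 120 and 129 CPM with WT and siNT. It fell in A546H (-0.34), was not called in WT (0.10), and differed by -0.44 (SE 0.0871, edgeR, adjusted p = 0.0113; -0.39 and 0.0512 without WT siUPF1 replicate 3). FDFT1, squalene synthase, was at 117 ± 5.2 CPM and 147 ± 13.6 CPM in A546H with siUPF1 and siNT, and at 157 ± 5.41 CPM and 140 ± 9.17 CPM in WT (SD, n = 3 each), a difference of -0.49 (SE 0.11, edgeR, adjusted p = 0.0287; -0.51 and 0.0371 without WT siUPF1 replicate 3). SQLE, squalene epoxidase, differed by -0.53 (SE 0.119, edgeR, adjusted p = 0.0325; -0.57 and 0.0238 without WT siUPF1 replicate 3), at 87.9, 98.9 and 96.4 CPM with A546H and siUPF1 and 112, 114 and 126 CPM with A546H and siNT, against 152, 144 and 131 CPM with WT and siUPF1 and 124, 112 and 132 CPM with WT and siNT. For all 3 the A546H siUPF1 libraries were the lowest of the 12. In the fit to the 12 libraries alone FDPS, FDFT1 and SQLE were not called (adjusted p = 0.267, 0.19 and 0.185). FDPS and FDFT1 overlap other genes in the reference annotation.

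Among the members that were not called, IDI1, the isomerase before FDPS, was at -0.64 (SE 0.166, edgeR, adjusted p = 0.0836) and the sterol isomerase EBP at -0.40 (SE 0.103, adjusted p = 0.0776). FADS2, a fatty acid desaturase, fell in both lines (-2.72 in A546H and -2.01 in WT), with a difference of -0.71 (SE 0.195, adjusted p = 0.116). The regulators SREBF1 and SREBF2 rose in both lines and their differences were -0.09 and -0.11. SCD, ELOVL6 and ACACA, enzymes of fatty acid synthesis and desaturation, were the 3 members above 0 (0.19, 0.15 and 0.02).

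The promoters of INSIG1 and FDPS are shown because these are called members of 1 list, and because NF-Y, the factor that binds CCAAT boxes, is known to act beside SREBP at sterol-regulated promoters. Both are from RefSeq (GRCh38.p14), from 250 bases before to 50 after the start of the gene, on the plus strand. Capitals mark CCAAT on either strand (ATTGG on the strand shown).
INSIG1, chr7:155297628-155297927: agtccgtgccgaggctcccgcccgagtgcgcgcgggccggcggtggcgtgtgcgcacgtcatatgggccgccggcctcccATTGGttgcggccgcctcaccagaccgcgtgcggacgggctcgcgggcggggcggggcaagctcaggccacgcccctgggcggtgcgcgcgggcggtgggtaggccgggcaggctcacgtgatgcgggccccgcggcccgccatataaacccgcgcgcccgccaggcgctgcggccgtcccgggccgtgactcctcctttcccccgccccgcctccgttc
FDPS, chr1:155308616-155308915: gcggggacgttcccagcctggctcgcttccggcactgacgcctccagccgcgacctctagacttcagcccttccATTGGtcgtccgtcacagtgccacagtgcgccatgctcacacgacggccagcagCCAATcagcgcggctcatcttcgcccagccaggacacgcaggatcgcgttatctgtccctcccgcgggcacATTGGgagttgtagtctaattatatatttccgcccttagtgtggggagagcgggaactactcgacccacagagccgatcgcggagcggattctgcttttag
INSIG1 holds 1 such match and FDPS 3. CCAAT was found in 23 of the 33 promoters (69.7%) that the table gives for 24 genes of the list, and in 34.6% of all 35116 promoters. The sterol response element searched as TCACNCCAC on either strand was in neither promoter, in 1 of the 33, that of SREBF2, and in 1.13% of all. Other forms of the element were not searched, so a promoter with no match is not shown to lack one. A match is a run of letters and not a measured binding site.

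Of the called genes outside these lists, IFI6, an interferon-induced gene, had the largest negative difference. IFI6 (ENSG00000126709.10) was at 2.09, 2.80 and 2.40 CPM with A546H and siUPF1 and at 4.66, 5.16 and 4.98 CPM with A546H and siNT, against 4.09, 4.32 and 6.82 CPM with WT and siUPF1 and 5.01, 3.64 and 4.65 CPM with WT and siNT. The highest value is of WT siUPF1 replicate 3, and the difference was -1.20 (SE 0.212, edgeR, adjusted p = 0.00427), or -0.94 (adjusted p = 0.0186) without that library. Of 18 interferon-stimulated genes it was the 1 called, and their median was -0.09. RAB13, a small GTPase of vesicle traffic (-0.45), the glutamate transporter SLC1A1 (-0.51) and the matrix protein MATN2 (-0.64, at 3.90 ± 0.227 CPM in A546H with siUPF1) make up the 8, and of these MATN2 was called in 0 of the 12 fits that left out 1 library.

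CLDN15, PCLO and FAM168B were, with SMG1 and GABARAPL1, the protein-coding genes called higher in each of the 12 fits that left out 1 library and with no overlapping gene in the reference annotation. CLDN15 (ENSG00000106404.9), a claudin of tight junctions, was at 28.1, 29.5 and 33.2 CPM with A546H and siUPF1 and at 14.8, 15.2 and 15.2 CPM with A546H and siNT, against 13.6, 15.2 and 16.4 CPM with WT and siUPF1 and 13.7, 14.2 and 13.5 CPM with WT and siNT. The A546H siUPF1 libraries were well above the other 9, which were close together, and the difference was 0.88 (SE 0.145, edgeR, adjusted p = 0.00172; 0.95 and 0.00202 without WT siUPF1 replicate 3). PCLO (ENSG00000186472.15), a scaffold of the presynaptic zone, was at 205, 192 and 207 CPM with A546H and siUPF1, and every other group lay between 109 and 151 CPM (difference 0.64, SE 0.122, edgeR, adjusted p = 0.00647). The lowest PCLO value is of WT siUPF1 replicate 3, without which the difference was 0.54 (adjusted p = 0.0238). FAM168B (ENSG00000152102.13), linked to neurite outgrowth, rose by 0.21 in A546H and fell by 0.20 in WT, with means of 181 ± 2.56 and 157 ± 3.06 CPM in A546H and 120 ± 4.38 and 138 ± 4.14 CPM in WT, siUPF1 before siNT (SD, n = 3; difference 0.40, SE 0.0738, edgeR, adjusted p = 0.00639; 0.43 and 0.00522 without WT siUPF1 replicate 3).

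The smallest adjusted p belonged to PEA15, a phosphoprotein that binds ERK and death-effector proteins. It was at 128, 128 and 132 CPM with A546H and siUPF1 and at 76.4, 82.0 and 94.3 CPM with A546H and siNT, against 44.3, 49.5 and 37.3 CPM with WT and siUPF1 and 59.1, 63.6 and 56.3 CPM with WT and siNT. It rose in A546H (0.62) and fell in WT (-0.45), so that the groups separated with siUPF1 from an A546H level that was already 0.50 higher with siNT (adjusted p = 0.00282). The difference was 1.06 (SE 0.126, edgeR, adjusted p = 5.5e-06; 0.97 and 3.95e-05 without WT siUPF1 replicate 3). PEA15 overlaps another gene, as do 51.1% of the genes called higher that the reference annotation holds and 45.5% of all tested genes it holds. It was chosen after its values were seen, as were RAB13, SLC1A1, MATN2, FDPS, FDFT1 and SQLE above and the genes of the next paragraph.

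The other called genes with a higher difference included regulators of RNA and chromatin, enzymes and several non-coding loci. CELF1, an RNA-binding protein of splicing and decay, was at 334 ± 7.71 and 217 ± 7.9 CPM in A546H and 256 ± 5.59 and 217 ± 5.84 CPM in WT (siUPF1 and siNT, SD, n = 3), and thus rose in both lines and further in A546H (difference 0.39, edgeR, adjusted p = 0.00647). PDPR, a regulator of pyruvate dehydrogenase phosphatase, HRK, a pro-apoptotic BH3-only gene, and YPEL2 followed the same course, with responses of 1.14, 1.32 and 0.92 in A546H and 0.64, 0.64 and 0.40 in WT. USP22, the deubiquitinase of the SAGA complex, showed the other course: it was at 372 ± 26.7 and 357 ± 32.4 CPM in A546H and at 259 ± 6.54 and 341 ± 8.49 CPM in WT, not called in A546H (0.06) and lower in WT (-0.39). HKR1 and GPR107 also were not called in A546H (0.04 and 0.00) and fell in WT (-0.52 and -0.38), and PPM1E, a phosphatase, fell in both lines and less in A546H (-0.16 and -0.59). U2AF1L4, a paralogue of a splicing factor (0.54), IBA57, of iron-sulphur cluster assembly (0.78), UBE2G2, a ubiquitin-conjugating enzyme of endoplasmic reticulum quality control (0.51), KANSL3, of a histone acetyltransferase complex (0.44), SCMH1, a Polycomb protein (0.62), and SPECC1L, a cytoskeletal linker (0.59), were also among the 49. Of the 49, 7 are annotated as pseudogenes, among them RRN3P3, NPIPP1 and LRRC37A4P, which belong to families with near-identical copies, so their counts are uncertain.

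Larger gene classes had medians away from 0 with few or no members called. Replication-dependent histone genes had a median difference of -0.54 over 59 members with 0 called and 31 with an unadjusted p under 0.05. With no filter on low counts 22 of the 59 were called lower (37.3%, against 0.181% of all genes in that fit). With the usual filter 0 were called without WT siUPF1 replicate 3, as with it, and the median without it was -0.48. No unfiltered fit without this library was run. The A546H response of the 59 histone genes had 2 higher and 18 lower (17.2% and 15% of all genes), with a median of -0.33. Their WT response had 11 higher and 0 lower (14% and 13.3% of all genes), with a median of 0.12. HIST1H1E, a linker histone, was at 800 and 1110 CPM in A546H and at 994 and 921 CPM in WT with siUPF1 and siNT (means of 3; difference -0.59, SE 0.181, edgeR, adjusted p = 0.209), and without WT siUPF1 replicate 3, at 1300 CPM, its difference was -0.34. The siNT level of these genes was higher in A546H, with a median of 0.30 and 0 called, and their siUPF1 level lower, with a median of -0.26. Histone transcripts carry no poly(A) tail in the main, and the libraries were made by depletion of ribosomal RNA, which keeps them.

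Genes for cytoplasmic ribosomal proteins had a median difference of -0.22 over 84 members with 3 of the 84 above 0, and those for the nuclear-encoded respiratory chain had -0.19 over 72. In A546H 47 ribosomal protein genes fell and 1 rose, and in WT 10 fell and 2 rose. Over all genes 15% fell and 17.2% rose in A546H, and 13.3% fell and 14% rose in WT. The proteasome (-0.12, 31 members) and endoplasmic reticulum chaperones (-0.14, 19 members) had smaller medians, and for the chaperones the A546H response had 7 members higher and 0 lower (median 0.13), against 10 and 0 in WT (median 0.31). The 14 reference genes commonly used for normalisation had a median of -0.18, with 1 of them above 0. List medians below 0, among them that of the cholesterol and fatty acid genes, are to be read beside this value. Zinc finger genes went the other way, with 361 of 482 differences above 0 and a median of 0.12; ZNF266 was the 1 called, and without WT siUPF1 replicate 3 0 were, with a median of 0.08, while 160 fell in A546H and 205 in WT.

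The remaining lists had medians between -0.24 and 0.07 and 0 members called. They were peroxiredoxins and thioredoxin (-0.24), selenoproteins (-0.21), autophagy and lysosome (-0.11), mitosis and DNA replication (-0.11), heat shock (-0.09), actin and SRF/YAP targets (-0.07), tRNA synthetases (-0.05), immediate early genes (-0.05), p53 targets (-0.03), translation termination (-0.02), ERK output (-0.01), splicing factors with poison exons (0.00), exon junction and general decay factors (0.03), mitochondrially encoded genes (0.03) and ATF4 targets (0.07). ATF4 targets had 12 members higher and 2 lower in A546H (17.2% and 15% of all genes), against 7 and 2 in WT (14% and 13.3%). With siUPF1 8 of 29 were higher in A546H than in WT (5.15% of all genes). STC2, a secreted stress hormone, was the furthest at 0.58 (SE 0.186, edgeR, adjusted p = 0.242), and PPP1R15A, the phosphatase subunit that ends the stress response, was at 0.55 (SE 0.247, adjusted p = 0.535). The ERK feedback genes SPRY4 and ETV5 fell in both lines, SPRY4 by 2.09 in A546H and by 2.58 in WT, with a difference of 0.50 (SE 0.293, edgeR, adjusted p = 0.721). IRF9, an interferon signalling factor, was at 0.00 in A546H and fell in WT (-0.77), a difference of 0.77 that was not called (edgeR, adjusted p = 0.287). TXNIP, an inhibitor of thioredoxin, rose in both lines, by 1.46 in A546H and 0.81 in WT, and HNRNPH3, a splicing factor, rose in A546H (0.63) and was not called in WT (0.14). Without WT siUPF1 replicate 3 the medians were -0.13 for peroxiredoxins and thioredoxin, -0.12 for selenoproteins, -0.14 for heat shock, -0.08 for translation termination, 0.11 for immediate early genes, -0.12 for mitochondrially encoded genes, 0.07 for ERK output and -0.15 for interferon-stimulated genes. Under at least 1 alternative, 10 list medians took the other sign: immediate early genes (-0.15 to 0.16), mitochondrially encoded genes (-0.13 to 0.12), ERK output (-0.09 to 0.09), actin and SRF/YAP targets (-0.14 to 0.02), ATF4 targets (-0.01 to 0.13), p53 targets (-0.05 to 0.01), translation termination (-0.09 to 0.03), splicing factors (-0.05 to 0.02), exon junction and decay factors (-0.02 to 0.06) and snoRNA hosts (-0.01 to 0.16).

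**Figure D4:**
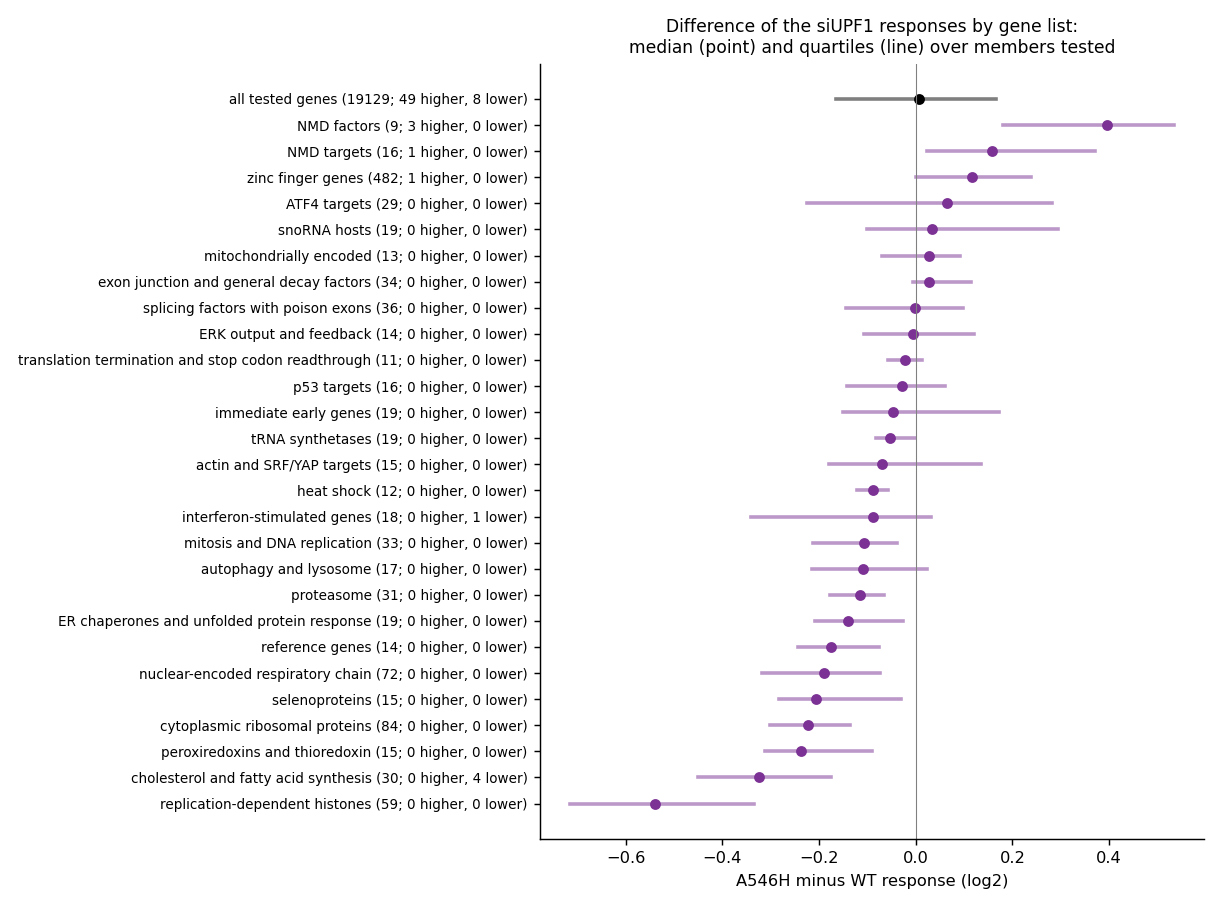
Median (point) and quartiles (line) of the difference of responses, A546H minus WT on the log2 scale, over the tested members of each list and over all tested genes (top); the label gives the members tested and called. NMD factors are at 0.40, histones at -0.54 and cholesterol and fatty acid genes at -0.33, with all genes at 0.01.

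The genes called in the deficit were compared with the responses of other lines, which share the A546H libraries with it. In the tests of the A546H response against that of R843C, another UPF1 change, 12 genes of all were called (0.0627%), and 0 of the 57 was among them. Against K498A, a change in the ATP-binding motif, 236 genes were called (1.23%, with 0.978% higher and 0.256% lower), and of the 57 these were DMPK and AC105344.2, higher in A546H, and INSIG1 and RAB13, lower. Against GA-KH, whose make-up the labels do not spell out, 4 genes were called (0.0209%), PEA15, PCNXL2, U2AF1L4 and FAM168B, all higher in A546H and all among the 49. Over the 49 genes the median difference between the A546H response and that of GA-KH was 0.43, that of K498A 0.22 and that of R843C -0.04, and over the 8 genes it was -0.32, 0.00 and 0.04. These genes were selected with the same A546H libraries, so neither these calls nor these medians are independent of that selection.

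INSIG1 changed by -1.10 in A546H, -1.05 in R843C and -1.07 in the line with the CLIP tag alone, and by -0.44 in K498A, -0.48 in DE636AA, -0.59 in GA-KH, -0.07 in E797R and -0.32 in WT. The difference between A546H and K498A was -0.66 (SE 0.126, edgeR, adjusted p = 0.00274). The cholesterol and fatty acid list as a whole did not fall further in A546H than in K498A. Its mean log2 CPM, siNT before siUPF1, was 6.152 and 5.97 in A546H and 6.252 and 5.919 in K498A. In DE636AA it was 6.202 and 5.787, in R843C 6.18 and 5.936 and with the tag alone 6.188 and 5.916. In GA-KH it was 6.134 and 6.127, in E797R 6.131 and 6.301 and in WT 6.176 and 6.299. These list means were not tested between lines. SMG1 changed by 0.59 in A546H, 1.53 with the tag alone, 0.93 in R843C, 0.67 in K498A, 0.56 in DE636AA, 0.19 in GA-KH, 0.09 in E797R and 0.01 in WT, and the A546H response was not called different from those of R843C (adjusted p = 0.684), K498A (0.887) or GA-KH (edgeR, 0.342). SMG6 had an A546H value (0.34) beside those of R843C (0.33) and the tag alone (0.77), and values from -0.29 to 0.10 in the other 5 lines. IFI6 was lowest in A546H (-1.03), followed by the tag alone (-0.74) and R843C (-0.58), and its A546H response was not called different from those of R843C, K498A and GA-KH.

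**Figure D5:**
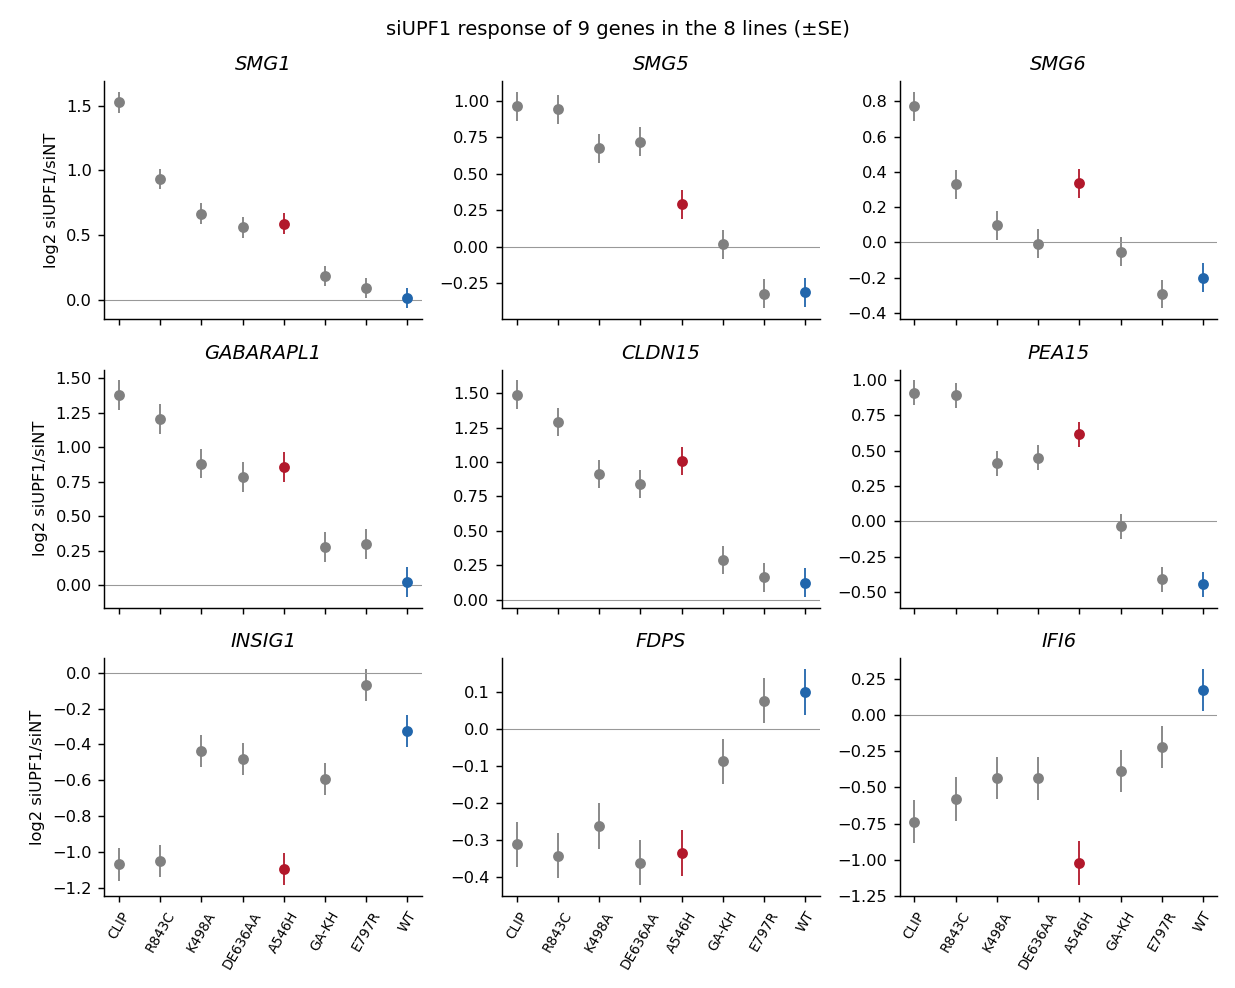
Log2 change with siUPF1 against siNT (vertical axis, with its SE) of 9 genes called in the deficit, in the 8 lines of the series; A546H is red, WT blue and the other lines grey. For SMG1 A546H is at 0.59, the tag alone (CLIP) at 1.53 and WT at 0.01; for INSIG1 A546H is at -1.10 and WT at -0.32.

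The properties of the called genes that the comparison did not use were set beside those of all tested genes, with no test. The 47 annotated genes called higher had a median GC content of 52.1%, the 8 called lower 48.7% and all genes 49.4%. Their median transcript lengths were 3186, 2204 and 2195 bases, and among protein-coding genes the median 3′ UTR lengths were 1277, 486 and 756 bases (34, 8 and 14077 genes). An annotated transcript subject to NMD was listed for 47.1% of the protein-coding genes called higher, 37.5% of those called lower and 41.8% of all. Across 18396 genes the difference of responses had a Spearman coefficient with GC content of -0.11, which was 0.15 without WT siUPF1 replicate 3. With an offset for GC content in each library, an alternative added after the data were seen, 318 genes were called, 265 higher and 53 lower, among them 54 of the 57.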

How the data were processed

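RNA was sequenced as paired-end reads after depletion of ribosomal RNA in 48 libraries, 3 for each of 16 groups of line and siRNA. The authors deposited 1 table of expected counts per gene, estimated from their alignments and not normalized; the submitters' processing notes name cutadapt, STAR, RSEM, DESeq2 and the build hg19, without versions, and the strand setting of the counting is not given in the sources used here. Rounding to whole numbers preceded the test of these deposited expected counts with edgeR 4.0.16 (R 4.3.3): low counts were filtered with its filterByExpr function (19129 of 57820 genes kept), libraries were scaled by TMM, and 1 quasi-likelihood model with 16 group terms was fitted to all 48 libraries (32 residual degrees of freedom), so that the groups share 1 estimate of the spread. Each comparison is a contrast of that model, with p-values adjusted by Benjamini and Hochberg over all genes tested, and a gene is called at an adjusted p under 0.05. CPM values use the TMM-scaled totals, log2 differences are those of the model, log2 CPM for principal components used a prior count of 2, and SEs are derived from its F statistic. DESeq2 1.42.0 was run as an alternative. The fit was tested on simulated counts in which genes at more than 5 CPM were changed in either direction. It called 27% of 100 genes changed by 0.5 on the log2 scale and 87% of 100 changed by 1. It also called 3 unchanged genes. The members and gene lists were chosen with earlier results of these data known. Genes were named by a rule: UPF1; called genes at 5 CPM or more in a group, called in each of the 12 fits that leave out 1 library, not clone-named, not pseudogenes and without an overlapping gene; all NMD factors and NMD targets, except 1 NMD factor that is not reported here by name; and the 2 furthest members of each other list, of which not all are printed. Other names were chosen after values were seen. GC content, lengths, biotypes and overlaps came from GENCODE 29, matched by gene identifier and used without coordinates, since its build differs from that of the table.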

Additional observations from a re-analysis of the deposited data

Results flagged for a closer look

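The A546H and WT responses differed by the test of the difference itself for 57 genes. Of the genes named by the rule, that test called CLDN15 (0.88), GABARAPL1 (0.84), PCLO (0.64), SMG5 (0.60), SMG1 (0.58), SMG6 (0.54) and FAM168B (0.40) higher in A546H, and INSIG1 (-0.78) and IFI6 (-1.20) lower, all on the log2 scale. Among the genes named by the rule, the same kind of test called FAM168B higher in the A546H response than in that of GA-KH (0.39). Against the K498A response it called UPF3A higher (0.32) and INSIG1 and ATF4 lower (-0.66 and -0.55) in A546H. Called genes that were chosen after their values were seen are left out of this section. Among them, PEA15 was called higher in A546H than in WT, and FDPS, FDFT1 and SQLE lower.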

How the results depend on the processing

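The difference of responses was called for 57 genes (49 higher, 8 lower). Counts moved to 153 (83, 70) with no filter on low counts, 9 (8, 1) in a fit to the compared groups only, 119 (92, 27) with DESeq2, 318 (265, 53) with a GC offset, 256 (222, 34) with that offset and without WT siUPF1 replicate 3, and 165 (140, 25) without CLIP siUPF1 replicate 2. Without WT siUPF1 replicate 3 they were 48 (46, 2) in a fit to the compared groups only and 166 (138, 28) when CLIP siUPF1 replicate 2 was also left out. Deviations of same-numbered libraries correlated at -0.351 to 0.592, above 0.1 in 15 of 18 pairs, and 25 of 36 differently numbered pairs were below 0. The 3 deviations of a group add up to 0 for each gene. Values below 0 therefore follow in part from those above it and are not separate support. A library correlated best with its own number in 26 of 36 cases, which take each pair of groups from both sides. This is a hint of pairing from the data and not from the design. Not every pair passed 0.1, and the labels name no pairing. With the replicate block 156 were called (120, 36), or 99 (83, 16) without WT siUPF1 replicate 3. With the block, 588 genes differed between lines with siNT (170 without it), and 30 (12), 459 (236) and 10 (4) in the tests against R843C, K498A and GA-KH. The difference between lines with siUPF1 was 1546, and 511 in a fit to the compared groups only and 2742 with the GC offset. With siNT it was 11 in a fit to the compared groups only, 469 with DESeq2, 641 with the GC offset and 610 without CLIP siUPF1 replicate 2. Against R843C the counts were 58 with no filter and 37 each with DESeq2, the GC offset and without CLIP siUPF1 replicate 2; against K498A 99 in a fit to the compared groups only, 402, 975 and 573; against GA-KH 76 with no filter, 24, 40 and 33. Leaving out each replicate in turn gave 22 to 59 (18 to 53 higher, 2 to 9 lower), 5011 to 5445 for the A546H response, 4227 to 4744 for the WT response, 979 to 1392 with siUPF1, 22 to 355 with siNT, 1 to 14 against R843C, 128 to 250 against K498A and 0 to 6 against GA-KH. The lowest counts of the difference of responses came without A546H siNT replicate 1 (22), A546H siUPF1 replicate 1 (24), WT siNT replicate 2 (28), WT siUPF1 replicate 1 (31), and A546H siUPF1 replicate 3 or WT siNT replicate 1 (36 each). No called named gene changed sign, and 7 that were not called did (BAG1, CDKN1A, DDIT3, ERN1, GADD45A, HBS1L and UPP1). The fit to the compared groups only kept 7 of the 57 calls. Among genes named by the rule, no filter lost FAM168B and SMG6, and RLE size factors and a stricter filter lost SMG5. The causes were not tested. Medians ranged from 0.27 to 0.46 for NMD factors and from -0.37 to -0.31 for cholesterol and fatty acid genes. With the replicate block 3 histone genes were called lower (5.08% of the list, against 0.188% of all genes). A gene that was not called is not shown to be unchanged.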
